A study of Mus musculus with 6 samples.

Results

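The 41 genes described here encode the parts of the proteasome that do not cut peptides, together with the factors that assemble the particle and the pathway that restores it. They were chosen by name and role: 7 subunits of the alpha ring, 4 structural beta subunits, 10 subunits of the 19S base, 8 of the 19S lid, 8 assembly chaperones, 2 regulators of the assembled particle and 2 members of the NRF1 pathway. Each of the 41 symbols matched 1 row of the 78275 genes in the table, and all 41 were among the 16105 genes with enough counts to be tested. RNA had been sequenced from CD4-CD8+ TCRβhigh T cells of 3 WT and 3 BIT mice, 1 library per mouse, all labelled male and 9 to 10 weeks old, on the C57BL/6 background. BIT mice are homozygous for an allele in which the sequence of *Psmb11*, encoding the thymoproteasome subunit β5t, was placed at the translation start of *Psmb8*, encoding the immunoproteasome subunit β5i, so that β5t is made where *Psmb8* is transcribed. WT mice carry neither change. The paper made several BIT lines and names the line used for its results by default. It names no other line for the RNA sequencing, and the line is not stated separately for these libraries. The labels name lymph nodes as the tissue and both lymph nodes and spleens in the protocol. For the RNA sequencing the paper names lymph nodes only. The question for these genes was whether an exchange of 1 catalytic subunit came with a change in the RNA of its partners.

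In the 20S core, outer alpha rings control entry and inner beta rings hold the proteolytic sites, and the 19S particle on the end of the core captures ubiquitylated proteins, removes the ubiquitin and unfolds the chain into the core. Chaperones of the PAC family and POMP guide the assembly of the core, and Psmd5, Psmd9 and Psmd10 guide that of the 19S base. When proteasome activity falls short, the membrane-bound transcription factor NRF1 (*Nfe2l1*) is cut by the protease DDI2 and raises the transcription of proteasome subunit genes, a feedback known as bounce-back. Lymphocytes carry much of their core as immunoproteasome, in which β1i, β2i and β5i take the catalytic positions while the alpha ring and the structural beta subunits stay the same.

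To show what the members share in sequence, their promoters were read from GRCm39 at the start of the Gencode M39 canonical transcript, from 250 bases before to 50 bases after it. The motifs searched on both strands were CCAAT, the box bound by NF-Y, and TGACNNNGC, the core of the antioxidant response element bound by NRF1 with its small MAF partners. The motifs may overlap each other. CCAAT was found in 14 of 41 member promoters (34.1%, 95% Wilson interval 21.6 to 49.5) and in 39.9% of 21770 protein-coding promoters. TGACNNNGC was found in 7 of 41 (17.1%, 8.53 to 31.3) and in 12.5% of all, and each interval held the share of all promoters. CCAAT was held by 4 of 7 alpha ring and 3 of 4 structural beta genes, and TGACNNNGC by *Adrm1*, *Psmb2*, *Psmc6*, *Psmd12*, *Psmd7*, *Psmd9* and *Psmg2*. In 21 members neither motif was found, *Nfe2l1* and *Ddi2* among them. The 120 bases before the start are printed 5′ to 3′ on the gene's own strand for 3 genes with CCAAT from the alpha ring, the beta ring and the 19S base, for 2 genes with TGACNNNGC, and for *Ddi2*, with motif matches in capitals (ATTGG is CCAAT on the other strand).
*Psma2* (α2), chr13:14787684-14787803, plus strand: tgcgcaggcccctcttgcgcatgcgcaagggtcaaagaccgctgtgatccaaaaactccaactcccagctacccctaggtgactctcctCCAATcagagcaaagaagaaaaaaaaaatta
*Psmb2* (β4), chr4:126571303-126571422, plus strand: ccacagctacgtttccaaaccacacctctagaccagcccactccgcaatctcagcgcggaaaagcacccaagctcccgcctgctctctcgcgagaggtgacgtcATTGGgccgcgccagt
*Psmc3* (Rpt5), chr2:90884234-90884353, plus strand: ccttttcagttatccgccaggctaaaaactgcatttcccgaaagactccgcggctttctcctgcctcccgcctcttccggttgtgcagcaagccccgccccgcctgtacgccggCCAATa
*Adrm1* (Rpn13), chr2:179813133-179813252, plus strand: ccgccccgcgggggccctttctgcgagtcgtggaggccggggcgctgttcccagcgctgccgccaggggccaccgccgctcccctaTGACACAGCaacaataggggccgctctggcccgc
*Psmd7* (Rpn8), chr8:108315122-108315241, minus strand: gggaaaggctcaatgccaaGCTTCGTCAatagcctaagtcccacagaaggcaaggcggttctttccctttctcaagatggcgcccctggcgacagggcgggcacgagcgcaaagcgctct
*Ddi2* (DDI2), chr4:141450778-141450897, minus strand: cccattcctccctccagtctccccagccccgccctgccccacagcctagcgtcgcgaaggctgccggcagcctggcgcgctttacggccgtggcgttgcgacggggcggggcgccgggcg
In *Psma2* the CCAAT match began 31 bases before the start, and in *Adrm1* the TGACNNNGC match began 34 bases before it. The TGACNNNGC match of *Psmb2* spans the start itself and so is not within the window printed. A match is a description of the letters and not a site of binding.

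The targeted genes followed the labels. *Psmb8* fell from 10790, 10345 and 8024 counts in WT replicates 1, 2 and 3 to 73, 59 and 60 counts in BIT replicates 1, 2 and 3, a log2 fold change of -7.00 (limma-voom, adjusted p = 2.87e-06). *Psmb11* rose from 0 counts in each WT library to 1926, 1754 and 1226 counts in those of BIT mice, at least 615-fold higher than the 3 counts per library that a count of 0 allows (adjusted p = 0.000226, and 0.0615 without WT replicate 1). Libraries held 37467678 to 52922675 estimated counts, of which the 41 genes took 0.214% to 0.238%. WT replicate 3, labelled male, had 66626 *Xist* reads, and its reads from 4 Y-linked genes came to 0, against 8474 to 12329 in the other libraries, and the first principal component (34.4% of the variance) set replicate 3 of both genotypes (54.6 and 28.6) apart from the other 4 libraries (-36.5 to -3.31). The members were therefore also compared without that library. Summed levels of cell markers are given in CPM, counts per 1000000 with library totals adjusted by TMM normalization. For 5 CD8 T cell markers the sum was 3299 to 3854 in WT and 3444 to 4001 in BIT. For 3 CD4 T cell markers it was 2.72 to 4.61 and 2.78 to 3.75, and for 5 B cell markers 26.6 to 39.5 and 21.4 to 30.3. For 5 myeloid markers it was 41.8 to 64.1 and 41.1 to 47.4, and for 3 γδ T cell markers 7.48 to 7.77 and 9.25 to 10.8. In the last sum, whose genes are named after their values were seen, *Scart1* had a log2 fold change of 1.11 (limma-voom adjusted p = 0.27), *Trdc* one of -0.099, and *Sox13* held 0 to 2 counts.

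None of the 41 genes differed between BIT and WT mice at an adjusted p below 0.05 (limma-voom with quantile normalization, Benjamini-Hochberg adjustment over all genes), where 0.137% of all genes did. At an unadjusted p below 0.05 there were also 0 of 41 members by limma-voom, by edgeR and by DESeq2, where 8.57%, 7.44% and 7.21% of all genes passed. The groups of 3 libraries overlapped for all 41 members, whereas they did not overlap for 13.3% of all genes tested. The fitted differences, BIT minus WT on the log2 CPM scale, ran from -0.31 for *Psma6* to 0.22 for *Ddi2*, with 15 above 0 and 26 below and a median of -0.056, beside a median of 0.012 over all genes. For 37 of 41 members the 95% interval of the difference lay within 1.5-fold in either direction (log2 0.585), as it did for 50.5% of all genes. The intervals of *Psma6*, *Psma7*, *Psmg3* and *Psmg4* reached past it, so the fit of all 6 libraries leaves room for a 1.5-fold difference in these 4 genes. Intervals were not counted with a library left out. Without WT replicate 3 the differences of the members ran wider, from -0.51 to 0.24, so more members may reach past 1.5-fold there. The between-mouse SD of the members had a median of 0.17 log2 units, beside 0.21 over all genes. Their median standard error was 0.12, beside 0.17 over all genes. The share of intervals over all genes was not matched to the members for level. In bulk RNA, fewer cells of a type and less RNA per cell cannot be told apart.

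**Figure D1:**
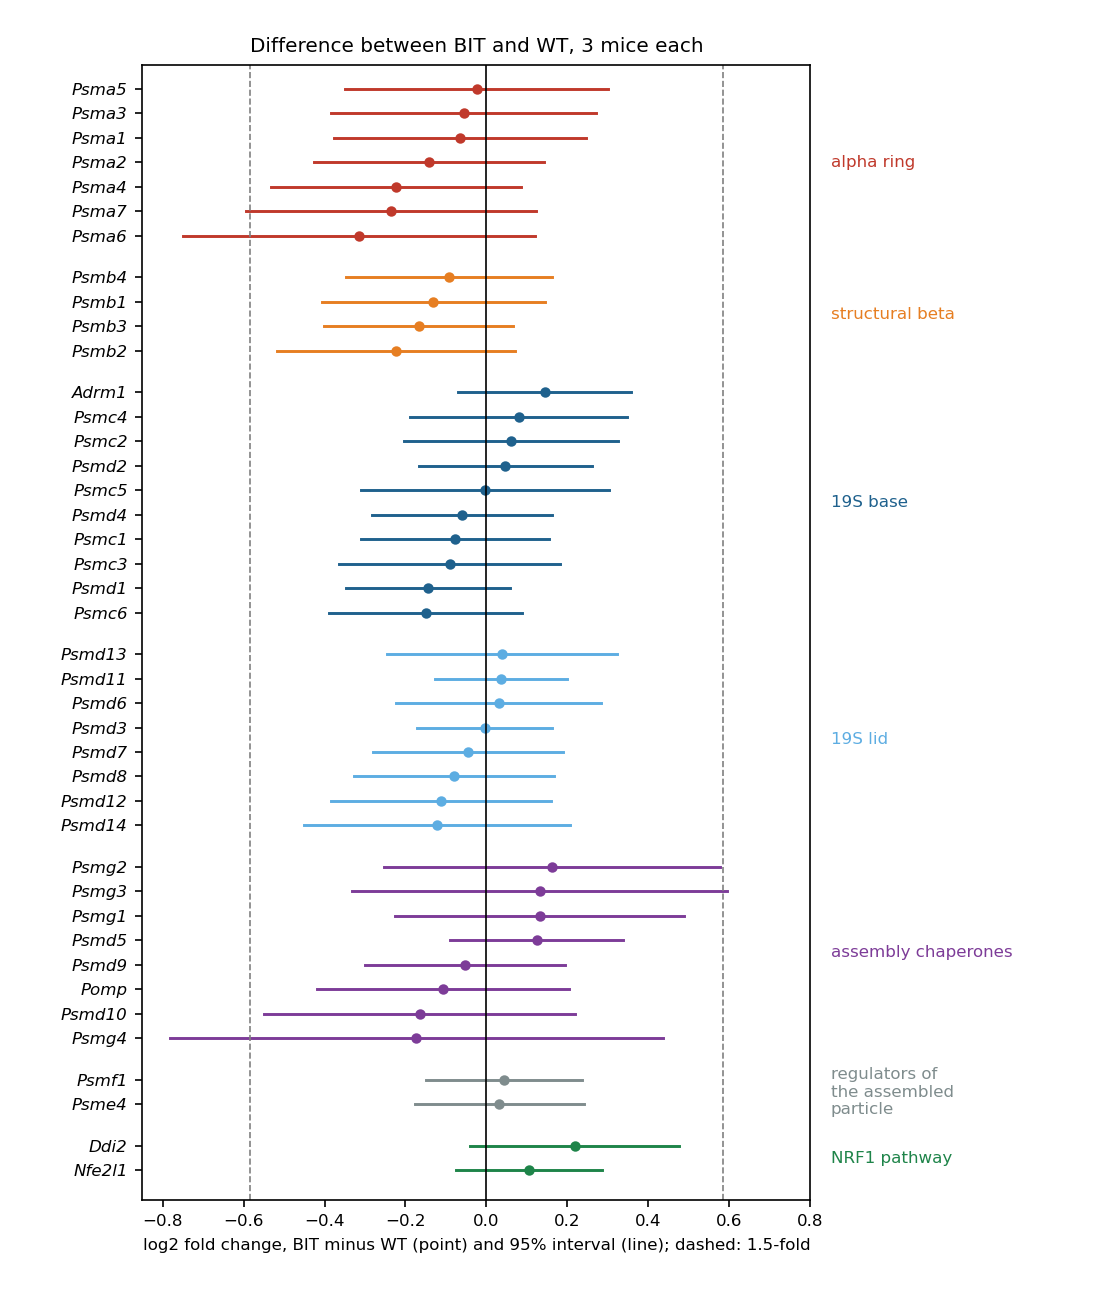
The plot gives, for each of the 41 genes on the vertical axis, the log2 fold change of BIT against WT (point) and its 95% interval from limma-voom (line), 3 mice per genotype, coloured by subcomplex, with dashed lines at 1.5-fold. Every interval includes 0, all 11 alpha ring and structural beta genes lie below 0, and 4 intervals cross a dashed line.

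The alpha ring genes had the lowest median difference together with the structural beta genes, and none passed the test. Fitted values were below 0 for 7 of 7 alpha ring genes, with a median of -0.14, which was -0.092 with TMM normalization, -0.091 with edgeR and -0.087 with DESeq2. *Psma6*, encoding α1 (GRCm39 chr12:55431007-55467094, plus strand), had levels of 6.14, 6.54 and 5.73 log2 CPM in WT replicates 1, 2 and 3 and 5.95, 5.93 and 5.59 in BIT replicates 1, 2 and 3, the order used for every gene here. Levels of genes in log2 CPM are values after quantile normalization throughout. For *Psma6* WT replicate 2 stood highest, BIT replicate 3 lowest, and WT replicate 3 lay below BIT replicates 1 and 2. The difference was -0.31 (95% interval -0.75 to 0.12, limma-voom adjusted p = 0.68). *Psma7*, encoding α4, had levels of 6.39, 6.81 and 6.26 in WT and 6.41, 6.34 and 6.00 in BIT, a difference of -0.24 (-0.59 to 0.12). *Psma5*, encoding α5, had levels of 4.68, 5.02 and 4.62 in WT and 4.94, 4.80 and 4.52 in BIT, a difference of -0.024 (-0.35 to 0.30). For both genes the highest library was again WT replicate 2 and the lowest BIT replicate 3. The other 4 subunits were *Psma4* at -0.22, *Psma2* at -0.14, *Psma1* at -0.065 and *Psma3* at -0.056.

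The structural beta subunits β3, β4, β6 and β7 sit in the same ring as the exchanged β5 position. All 4 fitted values were below 0, with a median of -0.15 (-0.098 with TMM normalization), and none passed the test. *Psmb2*, encoding β4, had levels of 5.90, 6.03 and 5.66 log2 CPM in WT and 5.87, 5.56 and 5.50 in BIT, a difference of -0.22 (95% interval -0.52 to 0.071, adjusted p = 0.67). BIT replicate 1 lay within the WT range and the other 2 BIT libraries lay below it. *Psmb3*, encoding β3, had levels of 5.41, 5.54 and 5.24 in WT and 5.30, 5.28 and 5.12 in BIT, a difference of -0.17 (-0.40 to 0.065). *Psmb4*, encoding β7, was at 5.48, 5.64 and 5.34 in WT and 5.47, 5.50 and 5.22 in BIT, a difference of -0.092. In each of these genes WT replicate 3 lay below at least 1 BIT library. *Psmb1*, encoding β6 and the only member on chromosome 17, which also carries *Psmb8*, had a difference of -0.13. The catalytic and activator genes other than *Psmb8* and *Psmb11*, 8 in number, gave the same count: 0 passed, with differences from -0.16 for *Psmb7* to 0.14 for *Psmb10*.

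The 20S genes moved together from mouse to mouse within each genotype. All 11 structural 20S genes were highest in WT replicate 2 and all 11 were lowest in BIT replicate 3, counts that were 11 and 10 with TMM-normalized CPM and 6 and 5 with libraries scaled to the per-length total of all genes. Averaged over the 11 genes, the deviation from each gene's mean over the 6 libraries was 0.026, 0.33 and -0.13 in WT and 0.051, -0.017 and -0.26 in BIT mice. The SD of this average was 0.23 in WT and 0.16 in BIT, as large as or larger than the difference of -0.15 between the genotypes. The 18 genes of the 19S particle followed the same order of libraries at the ends with less amplitude, at 0.026, 0.13 and -0.12 in WT and 0.055, 0.066 and -0.16 in BIT. The deviation of the 20S genes less that of the 19S genes was 0.00041, 0.20 and -0.0061 in WT and -0.0039, -0.083 and -0.10 in BIT. Relative to its mean over the 6 libraries, the ratio of 20S to 19S RNA was highest in WT replicate 2 and lowest in BIT replicates 2 and 3. These values do not give the abundance of 20S against 19S RNA.

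Short transcripts as a class varied in the same way. The median deviation of 1384 protein-coding genes with a canonical transcript under 1500 bases was 0.17 in WT replicate 2 and -0.18 in BIT replicate 3, and their median difference between genotypes was -0.078, whereas 6542 genes with transcripts of at least 3000 bases had a median difference of 0.031. The canonical transcripts of the alpha ring genes had a median of 1403 bases, those of the structural beta genes 2601 and those of the 19S base 1950. Across the 41 members Spearman's rho between transcript length and difference was 0.20, and across 11319 protein-coding genes 0.17, where the genes share their libraries and are not independent. The mitochondrial share of counts was highest in WT replicate 2 at 5.61% and lowest in BIT replicate 2 at 1.91%. The part of transcript length and of RNA composition in the differences of the 20S genes was not tested.

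**Figure D2:**
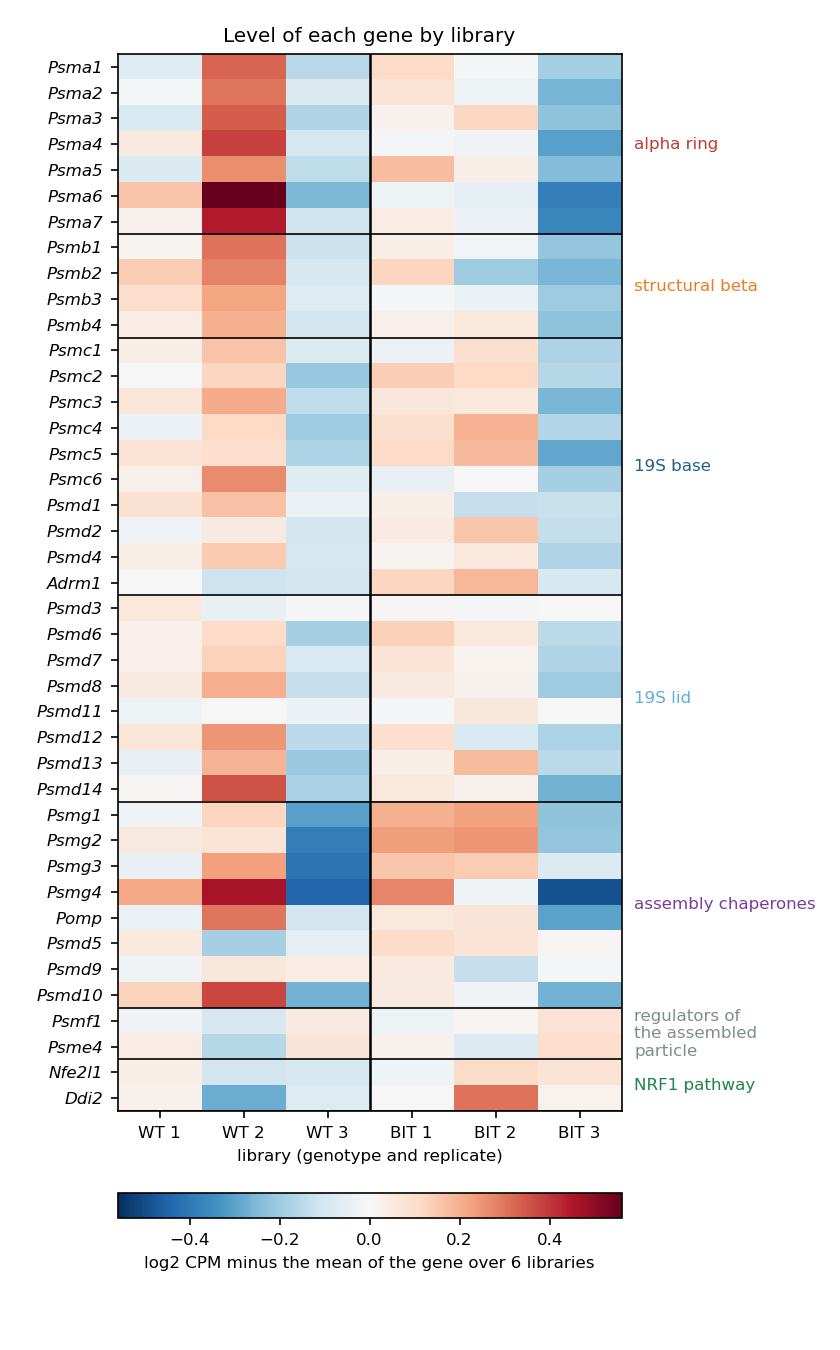
The map gives the log2 CPM of each of the 41 genes (rows, by subcomplex) in each of the 6 libraries (columns) less the gene's mean over the libraries, with red above and blue below that mean. WT replicate 2 is red and BIT replicate 3 blue through the alpha ring and structural beta genes, where *Psma6* has the widest range, and WT replicate 2 is blue for *Ddi2*.

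**Figure D3:**
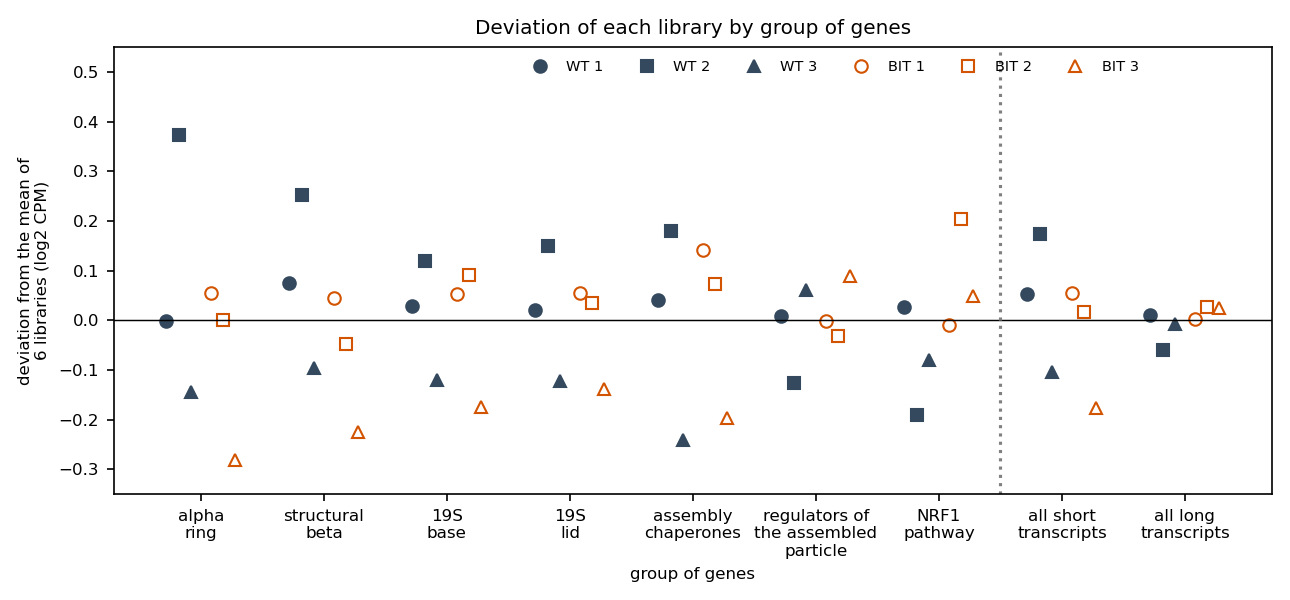
The vertical axis gives the deviation of each library from the mean of 6 libraries in log2 CPM, as the mean over the genes of each subcomplex and, right of the dotted line, as the median over all protein-coding genes with canonical transcripts under 1500 bases (short) and of at least 3000 bases (long). Filled symbols are WT and open symbols BIT, and in the alpha ring WT replicate 2 stands at 0.37 and BIT replicate 3 at -0.28.

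In the 19S base, whose 6 ATPases unfold substrates and whose non-ATPase subunits dock ubiquitin receptors, 0 of 10 genes passed the test, with 4 fitted values above 0 and 6 below. The median was -0.032 and lay above 0 with TMM normalization (0.011). *Adrm1*, encoding the ubiquitin receptor Rpn13, had the highest difference. Its levels were 5.89, 5.78 and 5.79 log2 CPM in WT and 6.01, 6.08 and 5.80 in BIT, a difference of 0.14 (95% interval -0.070 to 0.36, adjusted p = 0.70). BIT replicates 1 and 2 lay above every WT library and BIT replicate 3 among them. *Adrm1* shares reads with *Adrm1b*, a near-identical copy with 45.6 to 58.7 counts per library. *Psmc6*, encoding the ATPase Rpt4, had the lowest, with levels of 6.11, 6.34 and 6.01 in WT and 6.04, 6.08 and 5.89 in BIT, a difference of -0.15 (-0.39 to 0.088). *Psmd1*, encoding the scaffold subunit Rpn2, was next at -0.14 (-0.35 to 0.057). For both, WT replicate 2 was the highest library. *Psmc3* (Rpt5) at 6.50, 6.63 and 6.29 in WT and 6.49, 6.49 and 6.17 in BIT and *Psmc1* (Rpt2) at 5.30, 5.42 and 5.18 in WT and 5.23, 5.35 and 5.09 in BIT differed by -0.090 and -0.078. The remaining differences were 0.080 for *Psmc4*, 0.061 for *Psmc2*, 0.046 for *Psmd2*, -0.0039 for *Psmc5* and -0.061 for *Psmd4*.

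The 19S lid carries the deubiquitinase Rpn11 and its partner Rpn8. Of its 8 genes 0 passed the test, 3 fitted values were above 0 and 5 below, and the median of -0.025 lay above 0 with TMM normalization (0.0063). *Psmd14*, encoding Rpn11, which releases ubiquitin chains from substrates, had levels of 6.11, 6.46 and 5.92 log2 CPM in WT and 6.16, 6.12 and 5.84 in BIT, a difference of -0.12 (95% interval -0.45 to 0.21, adjusted p = 0.84). *Psmd7*, encoding Rpn8, had levels of 4.78, 4.88 and 4.67 in WT and 4.84, 4.78 and 4.59 in BIT, a difference of -0.046. WT replicate 2 was again the highest and BIT replicate 3 the lowest library for both. *Psmd13*, encoding Rpn9, had the highest difference of the lid at 0.039, from levels of 5.44, 5.67 and 5.27 in WT and 5.52, 5.66 and 5.33 in BIT. *Psmd8*, encoding Rpn12, was at 6.57, 6.73 and 6.39 in WT and 6.58, 6.55 and 6.33 in BIT, a difference of -0.081. The lowest library was WT replicate 3 for *Psmd13* and BIT replicate 3 for *Psmd8*. *Psmd3* and *Psmd11*, the scaffold subunits Rpn3 and Rpn6, had the smallest standard errors of the members, 0.074 and 0.072, with differences of -0.0048 (-0.17 to 0.16) and 0.036 (-0.13 to 0.20). *Psmd12* was at -0.11 and *Psmd6* at 0.030.

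Assembly chaperones act before the particle is complete and are not kept in it. POMP is degraded as the first substrate of the new core. Of 8 genes 0 passed, with 4 fitted values above 0 and 4 below and a median of 0.035. *Pomp*, whose product helps beta subunits join the forming core, had levels of 6.15, 6.48 and 6.08 log2 CPM in WT and 6.24, 6.26 and 5.89 in BIT. The difference was -0.11 (95% interval -0.42 to 0.20, adjusted p = 0.85), with BIT replicates 1 and 2 inside the WT range. *Psmg2*, *Psmg3* and *Psmg4* had the fewest counts of all members. *Psmg3*, the lowest, held 164 to 253 counts per library. *Psmg2*, encoding PAC2, had levels of 3.22, 3.24 and 2.78 in WT and 3.40, 3.41 and 2.94 in BIT, a difference of 0.16 (-0.25 to 0.58). Its partner *Psmg1*, encoding PAC1, had a difference of 0.13. *Psmg3*, encoding PAC3, had levels of 2.12, 2.39 and 1.75 in WT and 2.31, 2.30 and 2.08 in BIT, a difference of 0.13 (-0.33 to 0.59). Its partner *Psmg4*, encoding PAC4, had levels of 2.96, 3.20 and 2.30 in WT and 3.02, 2.72 and 2.26 in BIT, a difference of -0.17 (-0.78 to 0.44). For the first 3 PAC genes the lowest library was WT replicate 3, and for *Psmg4* it was BIT replicate 3. Among the 19S base chaperones the differences were 0.12 for *Psmd5*, -0.053 for *Psmd9* and -0.16 for *Psmd10* (gankyrin, on the X chromosome).

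The regulators of the finished particle are *Psmf1*, encoding PI31, and *Psme4*, encoding the activator PA200 that caps the core in place of the 19S particle. *Psmf1* had levels of 5.02, 4.95 and 5.09 log2 CPM in WT and 5.01, 5.05 and 5.12 in BIT, a difference of 0.044 (95% interval -0.15 to 0.24). *Psme4* had levels of 6.26, 6.06 and 6.29 in WT and 6.24, 6.14 and 6.32 in BIT, a difference of 0.032 (-0.18 to 0.24). In both genes WT replicate 2 was the lowest library and BIT replicate 3 the highest, the reverse of the 20S genes.

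The NRF1 pair had the highest differences in its median, 0.16, and neither gene passed the test. *Ddi2*, the protease that activates NRF1 (chr4:141404860-141450777, minus strand), had levels of 6.41, 6.11 and 6.31 log2 CPM in WT and 6.39, 6.69 and 6.40 in BIT, a difference of 0.22 (95% interval -0.040 to 0.48, limma-voom adjusted p = 0.64), the smallest of all members. BIT replicate 2 stood above the other libraries, WT replicate 2 stood below, and BIT replicates 1 and 3 lay just below WT replicate 1. With 1 library left out the difference ran from 0.12 (without BIT replicate 2) to 0.28. *Nfe2l1* (chr11:96705767-96720813, minus strand) had levels of 6.50, 6.37 and 6.38 in WT and 6.45, 6.57 and 6.55 in BIT, a difference of 0.10 (-0.076 to 0.29, adjusted p = 0.74). BIT replicates 2 and 3 lay above the 3 WT libraries and BIT replicate 1 below WT replicate 1. The list of 12 genes for the processing of NRF1 and its partners held 0 genes past the adjusted threshold and 1 at an unadjusted p below 0.05, *Sel1l*, an adaptor of ER-associated degradation, at 0.19 (limma-voom adjusted p = 0.58), beside 4.25% of all genes higher in BIT at that threshold. For 4 of the 12, *Vcp*, *Sel1l*, *Mafk* and *Bach1*, the 3 BIT libraries lay above the 3 WT libraries after quantile normalization, beside 7.38% of all genes in that direction, and *Mafk* overlapped in TMM-normalized CPM. Of 15 proteasome-associated proteins 13 were tested, and 0 passed the adjusted threshold. The deubiquitinase gene *Usp14* had an unadjusted p below 0.05, at 0.23 (limma-voom adjusted p = 0.54), 1 of 13 beside the same 4.25% of all genes. The BIT libraries lay above the WT libraries for *Usp14* and for the proteasome scaffold gene *Ecpas* (0.082, limma-voom adjusted p = 0.78), on both scales. After quantile normalization these were 2 of 13, beside 7.38% of all genes in that direction. In TMM-normalized CPM *Ube3c* separated in the same direction too, beside 6.89% of all genes. Of 6 ubiquitin supply genes 0 passed the adjusted threshold and the polyubiquitin gene *Ubb* had an unadjusted p below 0.05, at -0.20 (limma-voom adjusted p = 0.58), beside 4.32% of all genes lower in BIT.

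Levels of different genes were compared per length, as counts per base of the canonical transcript scaled to 1000000 per library. On this scale *Psma7* was the most abundant member in WT at 112 ± 7.20 (SD, n = 3), followed by *Pomp* at 92.7 ± 2.73, *Psma6* at 80.3 ± 11.3 and *Psmd8* at 72.1 ± 2.58. The range of mean ± SD of *Psma6* overlapped those of its neighbours *Pomp* and *Psmd8*. The lowest were *Psmg3* at 5.93 ± 0.379, *Psmd9* at 6.20 ± 0.883 and *Psmg2* at 7.57 ± 0.338, where the ranges of mean ± SD of *Psmg3* and *Psmd9* overlapped, as did those of *Psmg2* and the next gene, *Psmd5* (7.94 ± 1.38). Medians in WT were 37.7 for the alpha ring, 35.3 for the structural beta genes, 39.6 for the 19S base, 32.5 for the lid, 11.1 for the chaperones, 11.9 for the regulators and 16.0 for the NRF1 pair. *Psmb8* stood at 144 ± 10.2 in WT, above every member, and at 1.09 ± 0.132 in BIT, where *Psmb11* stood at 11.0 ± 0.872. On that scale *Psmb11* lay below all 11 structural 20S genes. The length used was that of its annotated transcript, whereas the BIT allele carries its cDNA within *Psmb8*, so the true length may differ. The constitutive subunit gene *Psmb5* was at 23.5 ± 1.95 in WT and 23.0 ± 3.75 in BIT. The length chosen sets much of this order: *Psmb1*, with a long canonical transcript, was at 25.7 per canonical length and at 140 per coding length, where it ranked first of the 41, and *Psmb11* in BIT was then at 34.0, above *Psma5* at 29.6.

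**Figure D4:**
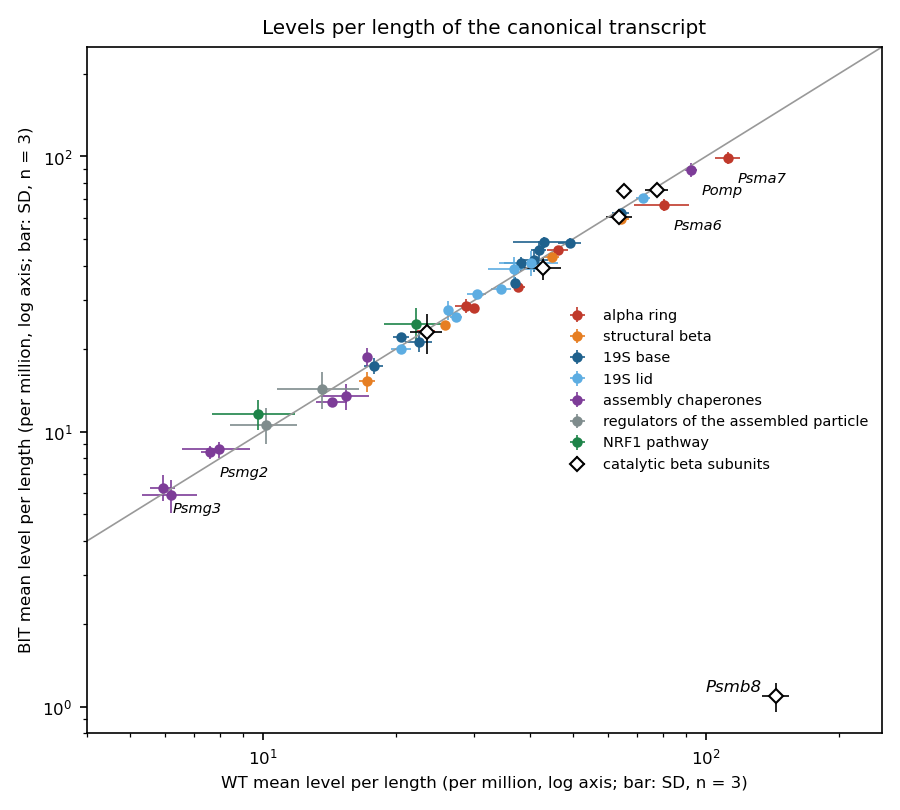
Each point gives the mean level of a gene per length of its canonical transcript in WT (horizontal, log axis) and BIT (vertical, log axis), on a total of 1000000 per library, with bars for the SD over 3 libraries, colours for the subcomplexes and diamonds for the catalytic beta subunits. The 41 members lie along the grey line of equal levels from *Psmg3* to *Psma7*, and *Psmb8* lies far below it at 144 in WT and 1.09 in BIT, while *Psmb11*, at 0 in WT, is not drawn.

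The scaling of the libraries bore on which members separated the genotypes. Genes of the Gencode class misc_RNA, mostly small RNAs, took 38.4% to 45.0% of the total of counts per length. When libraries were scaled to that total, the groups did not overlap for 8 members that were lower in BIT, *Psma2*, *Psma4*, *Psma7*, *Psmb1*, *Psmb2*, *Psmb3*, *Psmc6* and *Psmd10* (5.81% of all genes), and for 3 that were higher, *Psmc2*, *Psmc4* and *Psmg2* (2.76% of all genes), while 0 of 41 had an unadjusted p below 0.05. When they were scaled to the total of protein-coding genes, 2 members were lower, *Psmb3* and *Psmd1* (6.18%), and 2 were higher, *Adrm1* and *Psmd5* (5.79%). With TMM normalization *Psmf1* alone did not overlap, higher in BIT (6.89%). The fitted values of all 11 structural 20S genes were below 0 under quantile and TMM normalization, edgeR, DESeq2 and the per-length total of all genes, and 9 of 11 with the total of protein-coding genes.

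Without WT replicate 3, 6 of 41 members were lower in BIT at an unadjusted p below 0.05, *Psma4*, *Psma6*, *Psma7*, *Psmb2*, *Psmb3* and *Psmd10*, where 6.43% of all genes were. The largest of these, *Psma6*, had a difference of -0.51 (limma-voom adjusted p = 0.28), against -0.11 without WT replicate 2, and 0 members passed the adjusted threshold. With replicate 3 of both genotypes as a batch, 4 members were lower at that unadjusted threshold, *Psma4*, *Psma6*, *Psmb2* and *Psmb3*, where 7.54% of all genes were, and 0 passed the adjusted one. Without WT replicate 2, the library highest for all 11 structural 20S genes, 8 of the 11 fitted values were below 0 and their median was -0.026, against -0.14 with it. Without BIT replicate 3, the lowest, the numbers were 8 of 11 and -0.053. All 11 were below 0 without WT replicate 3, with a median of -0.22, and without BIT replicate 1, with a median of -0.20. Counts of *Psma3*, *Psma4*, *Psma5*, *Psmb3*, *Psmd1*, *Psmd2*, *Adrm1*, *Psmd11* and *Psmg3* were not whole in 1 library or more, as for reads that the counting divided between genes. Several members match a gene on the other strand. Of these genes *3110056K07Rik* (opposite *Psma3*), *Cep76* (*Psmg2*) and *Sirt3* (*Psmd13*) had the most counts, 603 to 885, 315 to 437 and 87 to 176. The counts of *Psmg2* and *Psmd13* were whole in all 6 libraries.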

How the data were processed

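RNA of sorted CD4-CD8+ TCRβhigh T cells was depleted of ribosomal RNA and sequenced from a stranded kit. The authors deposited expected counts per gene from RSEM 1.3.1 with Gencode M38, after cutadapt 1.18 and alignment to GRCm39 by STAR 2.7.0f, per the labels' processing notes and the study's methods. Expected counts were rounded, filtered with filterByExpr of edgeR 4.0.16 and compared by voom of limma 3.58.1 after quantile normalization, in R 4.3.3, groups coming from the sample titles. The group difference has no covariate. Annotation was Gencode M39, which held 78263 of the 78275 identifiers. Alternatives were TMM normalization, edgeR, DESeq2 1.42.0, other filters, quality weights, a replicate block, replicate 3 as a batch and each library left out. TMM normalization with the block or batch, scaling to per-length totals, coding length and RefSeq promoters were added after seeing the data. Scripts were tested on simulated data. Named members were those with an unadjusted p below 0.05, the highest and lowest difference and level per length of each subcomplex, *Nfe2l1* and *Ddi2*. Other members are given by their difference. The members and lists were chosen with earlier results of these data known. Quantile normalization hides a shift shared by most genes. Intervals of shares cover counting error only.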

Additional observations from a re-analysis of the deposited data

How the results depend on the processing

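No member passed an adjusted p of 0.05 under any of 19 alternatives, where the smallest adjusted p was 0.255. Members higher at an unadjusted p below 0.05 numbered 2 with TMM normalization and replicate 3 as a batch (6.67% of all genes) and 0 to 1 with 1 library left out, 1 of them without BIT replicate 3 (5.17%). Members lower numbered 4 with replicate 3 as a batch (7.54%), 1 with replicates 1 and 2 alone (7.65%), 1 with TMM normalization and replicate 3 as a batch (8.53%), and 0 to 6 with 1 library left out, 6 without WT replicate 3 (6.43%) and 1 without BIT replicate 1 (3.34%). Whether replicate numbers paired the mice was not settled. The correlations of deviations between mice of the same number were 0.139, 0.0255 and 0.332 for replicates 1, 2 and 3. WT replicates 1 and 3 correlated best with the BIT replicate of their own number, and WT replicate 2 with BIT replicate 1. With the replicate block 2 members were lower (*Psma4* and *Psma6*, where 6.54% of all genes were), and 1 with the block and TMM normalization (7.46%). It changed no adjusted call. *Psma5* was at 0.041 with quality weights, 0.017 with replicates 1 and 2 alone, and 0.0074 when scaled to protein-coding genes. With 1 library left out, 1 to 10 of 41 members changed sign, and among the members named by rule those differences ran from -0.12 to 0.10 for *Psma5*, -0.18 to 0.012 for *Psmc3*, -0.097 to 0.023 for *Psmd7*, -0.16 to 2.22e-06 for *Psmd8*, -0.050 to 0.15 for *Psmd13*, -0.24 to 0.027 for *Psmd14*, -0.014 to 0.28 for *Psmg3*, -0.40 to 0.019 for *Psmg4*, -0.18 to 0.016 for *Pomp* and -0.040 to 0.077 for *Psme4*, none of them past the threshold. *Psmb11* ran from 11.64 to 11.92 and missed it without WT replicate 1 alone. The cause of these shifts was not tested. Median WT levels per union of exons and per coding length were 24.5 and 74.3 for the alpha ring, 19.2 and 64.0 for the structural beta genes, 17.3 and 31.6 for the 19S base, 4.16 and 15.3 for the chaperones, 9.40 and 20.9 for the regulators and 13.1 and 25.2 for the NRF1 pair, and 16.7 per union of exons for the lid. With RefSeq starts 37.1% of 35 matched members held CCAAT and 14.3% TGACNNNGC, beside 41.1% and 14.0% of all genes. The other 639 values kept their direction and side of the threshold or moved by less than the spread between mice. With 3 mice per group an exact permutation test cannot go below 0.1.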
